A study of Mus musculus with 17 samples.

Results

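The antibody constant-region genes of the mouse lung were followed after focal irradiation. The members were chosen by gene symbol and comprised 10 of the 45777 genes in the count table. They were Ighm, Ighd, Ighg3, Ighg1, Ighg2b, Ighg2c, Ighe and Igha, which encode the heavy-chain constant regions, Igkc, which encodes the constant region of the kappa light chain, and Jchain, which encodes the joining chain. All libraries came from lungs of wild-type male C57BL/6 mice, which were 6 weeks old at the start and were acclimatised for a week before irradiation. The irradiated mice received 65 Gy or 75 Gy in a single fraction to the left lung with an image-guided small-animal irradiator, and the control mice received no radiation. Tissue was collected at 2 or 6 weeks. By the study's methods the RNA of irradiated lungs came from the lesions, and which region of the control lungs was taken is not given in the sources used here, so dose and sampled region cannot be told apart. The 17 libraries, named here by their number, were the 2-week controls 3126, 3127 and 3128, the 2-week 65 Gy libraries 3129, 3130 and 3131, the 2-week 75 Gy libraries 3132, 3133 and 3134, the 6-week controls 3135, 3136 and 3137, the 6-week 65 Gy libraries 3138 and 3140, and the 6-week 75 Gy libraries 3141, 3142 and 3143. The labels do not say whether each library was a separate mouse, so p-values measure only the spread between libraries.

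A B cell first makes IgM and IgD from the same primary transcript by alternative splicing, with both constant regions joined to the same rearranged variable segment. Activated B cells can then replace the IgM constant region by class switch recombination, in which the intervening DNA is removed and an IgG, IgE or IgA constant gene is brought next to the variable segment. Plasma cells transcribe the chosen heavy chain and a light chain at very high levels, and the joining chain links IgA dimers and IgM pentamers for transport across epithelia. IgA is the main antibody of mucosal surfaces, including the airways. C57BL/6 mice carry Ighg2c at the position where some other strains carry Ighg2a.

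The heavy-chain genes lie in tandem on the minus strand of chromosome 12 in the order in which switching can reach them, from Ighm at 113418826 to 113422730 (GRCm38.p6) through Ighd, Ighg3, Ighg1, Ighg2b, Ighg2c and Ighe to Igha at 113256204 to 113260236. Igkc lies on the plus strand of chromosome 6 at 70726435 to 70726754, and Jchain on the minus strand of chromosome 5 at 88519809 to 88527897. The 4 IgG genes are the closest relatives among them. Their hinge exons are given because this stretch, which ties the heavy chains to each other through cysteines, differs among the subclasses whose levels are compared below. Each sequence is exon 2 of its gene, read 5′ to 3′ on the coding strand from GRCm38, with in-frame cysteine codons in capitals.
Ighg3, chr12:113360529-113360576: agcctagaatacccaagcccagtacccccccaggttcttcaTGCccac
Ighg1, chr12:113329844-113329882: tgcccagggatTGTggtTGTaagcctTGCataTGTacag
Ighg2b, chr12:113307261-113307326: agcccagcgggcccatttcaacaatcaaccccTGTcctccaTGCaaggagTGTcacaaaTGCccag
Ighg2c, chr12:113288263-113288325: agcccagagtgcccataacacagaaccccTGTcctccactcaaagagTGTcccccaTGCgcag

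The hinge exon of Ighg3 held 1 cysteine codon, those of Ighg1 and Ighg2b held 4 each and that of Ighg2c held 3. Over the secreted coding sequence, Ighg2b and Ighg2c were 85.7% identical, and the other IgG pairs were 74.1% to 75.9% identical. No window of 100 bases, the length of an untrimmed read, was shared by any of the 8 heavy-chain genes. The longest shared run was 78 bases, between Ighg2b and Ighg2c, and 5.85% of the 50-base windows of Ighg2b occurred in Ighg2c, so shorter trimmed reads could be ambiguous between these genes. How the counting treated reads that fell within shared stretches is not given in the sources used here.

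The library totals were 46764569 to 66797879 counts, and 3 counts, the limit below which a level is not told from 0, corresponded to 0.0443 to 0.0642 CPM, a count scaled to the TMM-adjusted total of its library. The 10 genes together took 0.0307% to 0.0400% of all counts in the 2-week controls and 0.0331% to 0.0718% in the irradiated libraries of that time. At 6 weeks they took 0.0503% to 0.115% in the controls and 0.231% to 1.10% in the irradiated libraries. Because whole tissue was sequenced, a change in the number of cells that make an antibody and a change in RNA per cell cannot be told apart.

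**Figure D1:**
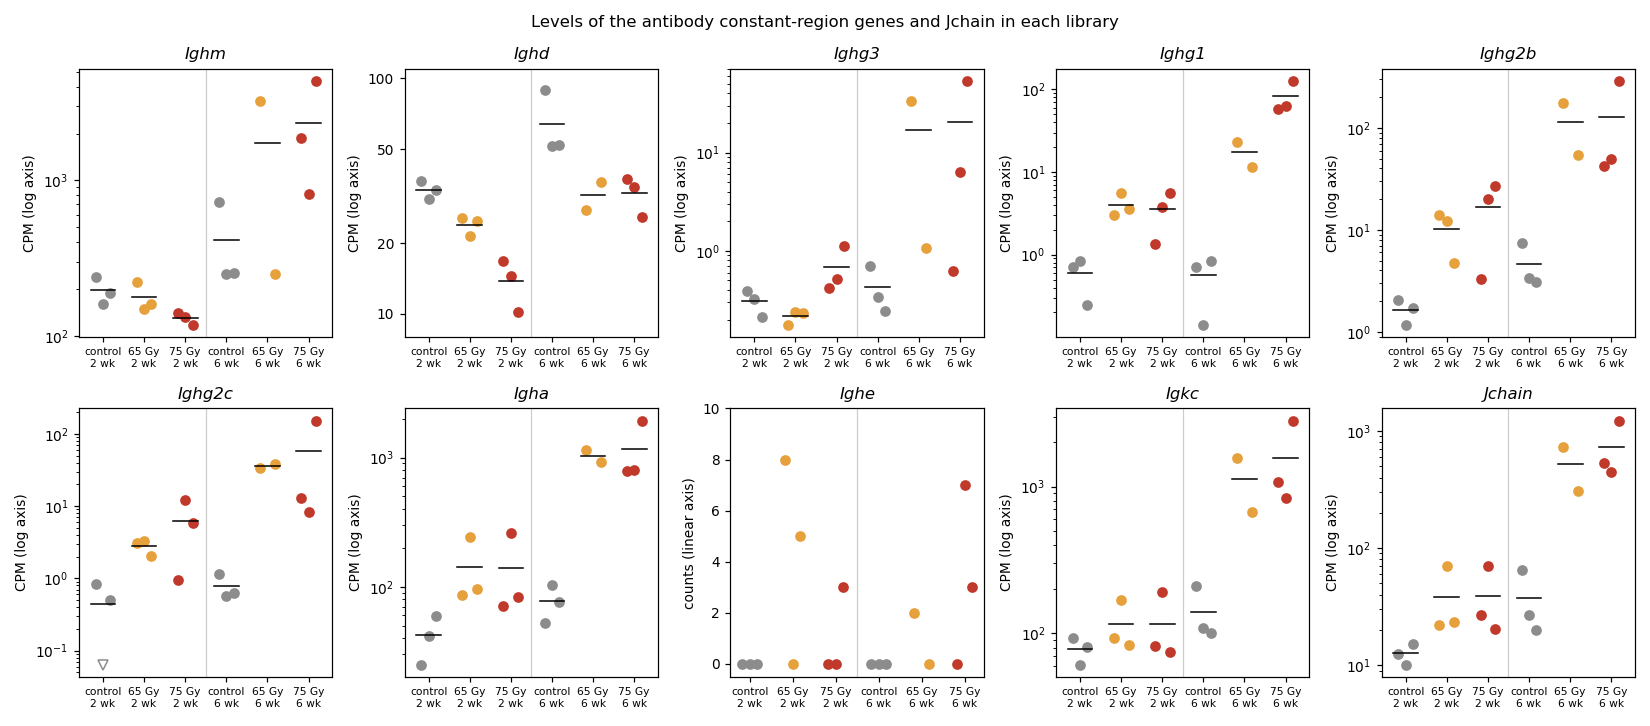
Level of each gene in each of the 17 libraries, in CPM on a log axis except Ighe, which is in counts on a linear axis; points are libraries, bars are group means, and the open triangle marks an Ighg2c count of 0 drawn at the 3-count limit. At 6 weeks Ighg1, Ighg2b, Ighg2c, Igha, Igkc and Jchain lay above every control of that time in all 5 irradiated libraries, while Ighd lay below them.

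At 6 weeks the IgG and IgA genes, the kappa chain and the joining chain rose in irradiated lung, as did IgM on average. Ighm and Ighg3 overlapped between the groups, and IgD transcript was lower. Of the 10 genes, 9 passed the filter on low counts and were tested with edgeR; Ighe did not pass. To be called, a gene needed an adjusted p of no more than 0.05 together with a log2 fold change of 1 or more in size. In the mean of both doses against control at 6 weeks, 8 of the 9 were called, all higher, against a background of 8.43% of the 22052 genes tested in either direction, 6.31% higher and 2.11% lower. The median log2 fold change of the 9 was 4.05 against 0.02 for all genes.

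Ighg1 is the subclass that interleukin-4 directs in mice. Its levels at 6 weeks were 0.714, 0.143 and 0.838 CPM in controls 3135, 3136 and 3137, 23.3 and 11.4 CPM in the 65 Gy libraries 3138 and 3140, and 57.5, 63.5 and 127 CPM in the 75 Gy libraries 3141, 3142 and 3143. Every irradiated library was thus above every control, and every 75 Gy library was above both 65 Gy libraries. The log2 fold change for the mean of both doses was 6.05 (SE 0.62, adjusted p = 1.39e-05, edgeR quasi-likelihood test).

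Ighg2c, the subclass that interferon-gamma directs in mice, was at 1.14, 0.571 and 0.628 CPM in the 6-week controls, at 34.2 and 38.7 CPM after 65 Gy and at 13.1, 8.21 and 153 CPM after 75 Gy. All 5 irradiated libraries lay above the controls, with 1 of them, 3143, far above the other 4. Its log2 fold change was 5.87 (SE 1.13, adjusted p = 0.00130). Ighg2b, a subclass linked to transforming growth factor beta and to responses without T cell help, was at 7.38, 3.39 and 3.05 CPM in controls, 175 and 54.3 CPM after 65 Gy and 42.4, 49.8 and 289.7 CPM after 75 Gy. This subclass was the most abundant IgG in the controls, and its log2 fold change of 4.71 (SE 0.85, adjusted p = 8.65e-04) came with no overlap between groups.

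Ighg3, a subclass typical of responses to polysaccharides, did not behave alike in the irradiated libraries. Its levels were 0.697, 0.339 and 0.244 CPM in the 6-week controls, 33.2 and 1.06 CPM after 65 Gy, and 0.623, 6.40 and 53.8 CPM after 75 Gy. Library 3141 therefore lay within the control range although Ighg1 in the same library was at 57.5 CPM. The gene was called in the mean of both doses at 5.43 on the log2 scale (SE 1.31, adjusted p = 0.00560). With 65 Gy alone its log2 fold change was 5.31 (adjusted p = 0.0195), and without library 3138 it was 1.31 (adjusted p = 0.656). That call was also lost without control 3135 (adjusted p = 0.0527), 3136 (adjusted p = 0.0725) or 3137 (adjusted p = 0.0720).

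Igha, the constant region of IgA, was at 52.1, 103 and 76.5 CPM in the 6-week controls, at 1143 and 920.2 CPM after 65 Gy and at 781, 808 and 1929.8 CPM after 75 Gy. The lowest irradiated library, at 781 CPM, lay far above the highest control, at 103 CPM, and the log2 fold change was 3.83 (SE 0.57, adjusted p = 2.03e-04). Jchain was at 64.7, 27.1 and 20.0 CPM in controls, 733 and 309 CPM after 65 Gy and 532, 446 and 1221 CPM after 75 Gy. The groups did not overlap, and its log2 fold change was 4.05 (SE 0.63, adjusted p = 3.02e-04). Igkc, the light-chain constant region of most mouse antibodies, was at 212, 109 and 99.99 CPM in controls, 1564 and 676 CPM after 65 Gy and 1069, 843 and 2814 CPM after 75 Gy. Its log2 fold change was 3.24 (SE 0.51, adjusted p = 3.07e-04), again without overlap.

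Ighm and Ighd, whose transcripts naive B cells make together, went different ways. Ighm was at 730.2, 248 and 253 CPM in the 6-week controls, at 3231 and 249 CPM after 65 Gy and at 1878, 816 and 4369 CPM after 75 Gy. Library 3140 stood inside the control range, while the other 4 irradiated libraries lay above it. The log2 fold change was 2.30 (SE 0.68, adjusted p = 0.0172) for the mean of both doses, and the call was lost without 3138 (0.90, adjusted p = 0.194), without 3136 (2.04, adjusted p = 0.0774) or without 3137 (2.05, adjusted p = 0.0744). Without 3138 the 65 Gy value changed from 2.08 to -0.71. Ighd was at 89.4, 51.4 and 52.0 CPM in controls, 27.6 and 36.5 CPM after 65 Gy and 37.3, 34.7 and 25.9 CPM after 75 Gy. All irradiated libraries were below all controls, and its log2 fold change of -0.99 (SE 0.19, adjusted p = 0.00142) stopped just short of the limit of 1 for a call. Leaving out any of 3136, 3137, 3140, 3141 or 3142 took it past that limit, to between -1.13 and -1.003.

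Ighe, the constant region of IgE, was at the edge of detection. No count was found in any of the 6 controls, which allows up to 3 counts per library, and 6 of the 11 irradiated libraries had counts. These were 8 counts in 3129, 5 in 3131 and 3 in 3134 at 2 weeks, and 2 in 3138, 7 in 3142 and 3 in 3143 at 6 weeks. No fold change is given at this depth.

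By dose at 6 weeks, 8 of the 9 genes were called at 65 Gy (background 5.28%, with 4.34% higher and 0.943% lower), 7 of them higher and Ighd lower. At 75 Gy 8 of the 9 were called (background 10.4%, with 7.28% higher and 3.13% lower), all higher. The 65 Gy group held only 2 libraries, a further library that the study lists for it not being analysed here, and without 3138 the count there was 4, with Ighd, Ighg3, Ighg2b (adjusted p = 0.0522) and Igkc (adjusted p = 0.0508) no longer called. The 65 Gy call of Ighd was also lost without 3135 or 3140, and its log2 fold change of -1.01 came under the limit of 1 with 5 of 7 other processing choices, down to -0.976. The 75 Gy call of Ighm was lost without 3136, 3137 or 3143 (adjusted p = 0.0588, 0.0569 and 0.0865).

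**Figure D2:**
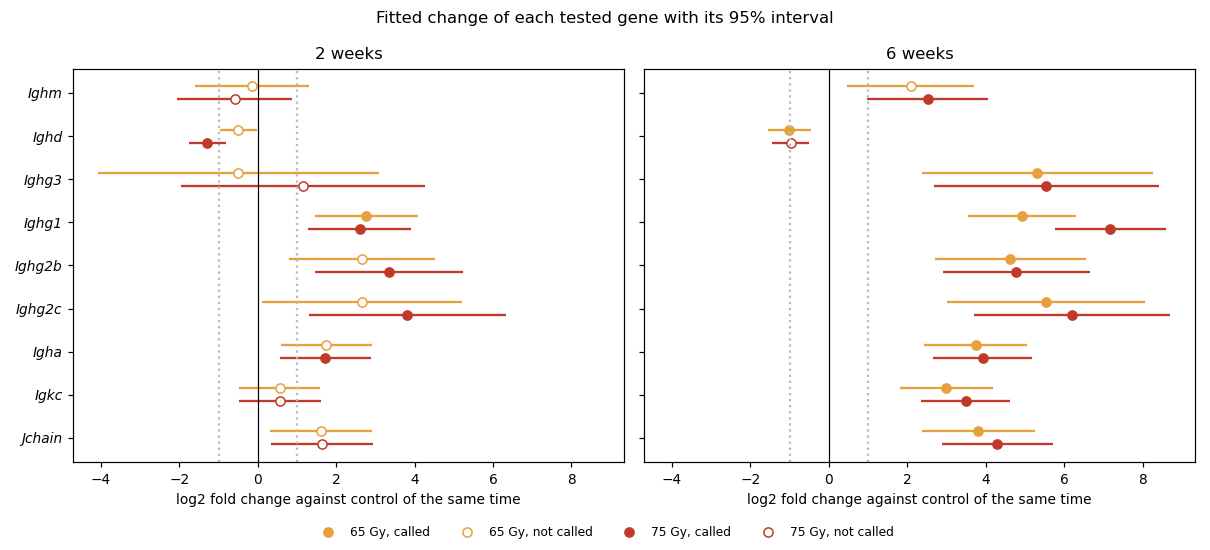
Fitted log2 fold change of the 9 tested genes against the controls of the same time, for 65 Gy and 75 Gy, with 95% intervals derived from the edgeR F statistic. Filled points were called and dotted lines mark a log2 fold change of 1 in either direction. At 2 weeks the fitted values run from -1.28 for Ighd after 75 Gy to 3.81 for Ighg2c after 75 Gy, and at 6 weeks up to 7.18 for Ighg1 after 75 Gy.

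At 2 weeks the same comparison gave smaller values, and 5 of the 9 genes were called in the mean of both doses, all higher (background 6.72% in either direction, 5.07% higher and 1.65% lower). The called genes were Ighg2c, Ighg2b, Ighg1, Igha and Jchain. Their median level remained low compared with 6 weeks. The median log2 fold change over the 9 was 1.62 against -0.01 for all genes.

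The 2-week Ighg1 levels were 0.710, 0.835 and 0.248 CPM in controls 3126, 3127 and 3128, 2.99, 5.55 and 3.53 CPM in 65 Gy libraries 3129, 3130 and 3131, and 1.35, 3.78 and 5.63 CPM in 75 Gy libraries 3132, 3133 and 3134. Ighg2b was at 2.03, 1.18 and 1.70 CPM in controls, 13.9, 12.1 and 4.77 CPM after 65 Gy and 3.31, 20.0 and 26.7 CPM after 75 Gy. Ighg2c was at 0.832, 0 and 0.496 CPM in controls, 3.10, 3.30 and 2.07 CPM after 65 Gy and 0.963, 12.1 and 5.80 CPM after 75 Gy. For all 3 subclasses each of the 6 irradiated libraries was above each control, with 3132 the lowest of the irradiated libraries. The log2 fold changes were 2.68 for Ighg1 (SE 0.57, adjusted p = 0.00390), 2.997 for Ighg2b (SE 0.82, adjusted p = 0.0166) and 3.23 for Ighg2c (SE 1.11, adjusted p = 0.0486). The Ighg1 call held whichever library was left out, the Ighg2b call was lost without 3127 or 3128 (adjusted p = 0.0725 and 0.0613), and the Ighg2c call held only without 3132. Ighg3 lay between 0.210 and 0.386 CPM in controls and between 0.178 and 1.11 CPM in irradiated libraries, and was not called (0.33, SE 1.39, adjusted p = 0.897).

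Igha at 2 weeks was at 25.0, 41.8 and 59.3 CPM in controls, 86.6, 242 and 96.6 CPM after 65 Gy and 71.3, 263 and 82.7 CPM after 75 Gy. Jchain followed the same libraries, with 12.6, 10.2 and 15.1 CPM in controls, 22.1, 70.0 and 23.5 CPM after 65 Gy and 26.9, 70.6 and 20.4 CPM after 75 Gy. Libraries 3130 and 3133 were the highest of the irradiated libraries for both genes, and no irradiated library reached down to the controls. The log2 fold change was 1.74 for Igha (SE 0.50, adjusted p = 0.0208) and for Jchain 1.62 (SE 0.55, adjusted p = 0.0469). The Igha call was lost without 3126 or 3127 (adjusted p = 0.0736 and 0.0712), and the Jchain call without 3126, 3127, 3128, 3130 or 3133 (adjusted p = 0.0887 to 0.152).

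Igkc, at 61.4 to 93.1 CPM in controls and 75.2 to 191 CPM in irradiated libraries, was not called at 2 weeks (0.56, SE 0.43, adjusted p = 0.398). Ighm was at 239, 161 and 188 CPM in controls, 221, 149.7 and 159.8 CPM after 65 Gy and 140.3, 133 and 118 CPM after 75 Gy. It was not called (-0.37, SE 0.58, adjusted p = 0.710), although the 3 libraries of 75 Gy lay below all controls. Ighd was at 36.7, 30.8 and 33.5 CPM in controls, 25.6, 21.5 and 24.7 CPM after 65 Gy and 16.8, 14.5 and 10.2 CPM after 75 Gy. Here the 3 groups were fully separated in order of dose, with log2 fold changes of -0.49 at 65 Gy (SE 0.22, adjusted p = 0.171) and -1.28 at 75 Gy (SE 0.22, adjusted p = 0.00104).

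With each dose on its own at 2 weeks, 1 of the 9 genes was called at 65 Gy (background 4.35%, with 3.47% higher and 0.88% lower), namely Ighg1, and 5 at 75 Gy (background 7.74%, with 5.67% higher and 2.07% lower), namely Ighg1, Ighg2b, Ighg2c and Igha higher and Ighd lower. The 65 Gy count was 4 with the edgeR exact test and 3 with DESeq2. These called 1254 and 1200 of all genes, against 960 with the quasi-likelihood test. The 75 Gy count was 2 without 3127 and 3 without 3133 or 3134. The 5 calls for the mean of both doses became 1 without control 3127, to 2 without 3126 or 3128, and to 3 without 3130 or 3133.

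The difference between the doses was tested directly. None of the 9 genes was called for 75 Gy against 65 Gy at 2 or 6 weeks with edgeR, the edgeR exact test or DESeq2, against a background of 0% of all genes with edgeR at both times. At an unadjusted p under 0.05 there was 1 of the 9 genes at each time, Ighd at 2 weeks and Ighg1 at 6 weeks. Of the 22052 genes tested, 1570 at 2 weeks and 1431 at 6 weeks were under the same limit. The 6-week Ighg1 levels did not overlap between the doses, and the log2 fold change of 2.25 had a 95% interval of 1.004 to 3.50 (unadjusted p = 0.00159, adjusted p = 0.735, edgeR). The 2-week Ighd difference was -0.79 with an interval of -1.26 to -0.32 (adjusted p = 0.693). For Igha the intervals were -1.15 to 1.09 at 2 weeks and -1.07 to 1.44 at 6 weeks, which leaves room for differences of 2-fold in either direction.

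The controls of 6 weeks had higher levels than those of 2 weeks for several members. None of the 9 was called with edgeR, the edgeR exact test or DESeq2 (edgeR background 0.576%, with 0.24% higher and 0.336% lower). Under an unadjusted p of 0.05 there were 2, against 3412 of the 22052 genes tested. Ighd was higher by 0.93 on the log2 scale (SE 0.22, adjusted p = 0.0463), under the limit of 1. Its adjusted p was 0.0686 to 0.206 with a control left out in turn, and 0.00334 to 0.137 with other processing choices. Jchain differed by 1.56 (SE 0.61, adjusted p = 0.231), Ighg2b by 1.49 (SE 0.88, adjusted p = 0.446) and Ighm by 1.07 (SE 0.69, adjusted p = 0.495). Control 3135 was the highest of the 6 controls for Ighm, Ighd, Igkc, Jchain, Ighg2b, Ighg2c and Ighg3.

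Whether the effect of irradiation at 6 weeks exceeded that at 2 weeks was tested as an interaction over both doses. No member was called with edgeR (background 0.181%, with 0.154% higher and 0.0272% lower). Under an unadjusted p of 0.05 there were 6 members, against 3348 of the 22052 genes tested. DESeq2 called 3 members, against 247 of all genes. The differences in log2 fold change were 3.37 for Ighg1 (95% interval 1.62 to 5.12, adjusted p = 0.118), 2.68 for Igkc (1.36 to 4.005, adjusted p = 0.1003), 2.43 for Jchain (0.84 to 4.02, adjusted p = 0.178) and 2.09 for Igha (0.67 to 3.51, adjusted p = 0.188). For Ighd the difference was -0.10 (-0.69 to 0.48, adjusted p = 0.886). Among the other members, likewise not called, it was 5.10 for Ighg3, 2.67 for Ighm, 2.64 for Ighg2c and 1.71 for Ighg2b.

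The isotype composition was read from the counts on the 8 heavy-chain genes, which numbered 11001 to 380505 per library. In controls IgM held most of them, and after irradiation IgD took a smaller share and IgG a larger one in every library. The 95% Wilson intervals of these shares were at most 0.870 percentage points wide on either side, covering counting error only.

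**Figure D3:**
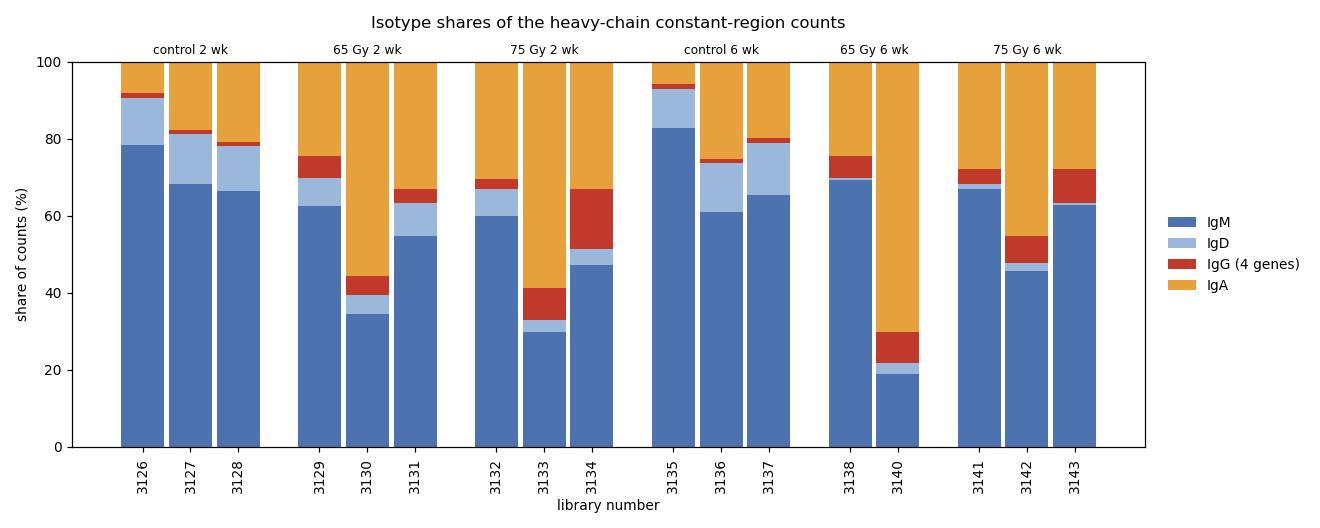
Share of the heavy-chain constant-region counts on Ighm, Ighd, the 4 IgG genes and Igha in each library, grouped by dose and time; Ighe is too small to be seen. IgD falls from 10.1% or more in each control to 2.78% or less in each irradiated library of 6 weeks, and IgA exceeds IgM in libraries 3130, 3133 and 3140.

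IgD held 12.1%, 13.1% and 11.8% in the 2-week controls, 7.24%, 4.94% and 8.48% after 65 Gy and 7.17%, 3.25% and 4.07% after 75 Gy. At 6 weeks it held 10.1%, 12.6% and 13.5% in controls, 0.592% and 2.78% after 65 Gy and 1.33%, 1.94% and 0.372% after 75 Gy. Irradiated and control libraries did not overlap at either time, and neither did the irradiated libraries of 6 and 2 weeks. The exact permutation test gave p = 0.0238 at 2 weeks, p = 0.0357 at 6 weeks and p = 0.00433 for irradiated 6 weeks against irradiated 2 weeks, each the smallest that its numbers of libraries allow. Between the irradiated libraries of the 2 times the level of Ighd went the other way from its share. It was 10.2 to 25.6 CPM at 2 weeks and 25.9 to 37.3 CPM at 6 weeks. The heavy-chain counts of these libraries were 13388 to 30205 at 2 weeks and 76821 to 380505 at 6 weeks.

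IgG held 0.936% to 1.30% in the 6 controls, 2.58% to 15.7% in the irradiated libraries of 2 weeks and 4.04% to 8.97% in those of 6 weeks. The means of irradiated libraries were alike at the 2 times, 6.77% ± 4.76 (SD, n = 6) and 6.78% ± 1.95 (SD, n = 5), while the median Ighg1 level was 3.65 CPM in the first and 57.5 CPM in the second. The exact permutation test against control gave p = 0.0238 at 2 weeks and p = 0.0357 at 6 weeks, and p = 0.983 between the irradiated libraries of the 2 times.

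IgA held 8.21%, 17.7% and 20.9% in the 2-week controls and 24.5% to 58.9%, with a median of 33.1%, in the 6 irradiated libraries of that time. At 6 weeks it held 5.91%, 25.3% and 19.8% in controls, 24.5% and 70.2% after 65 Gy and 27.8%, 45.2% and 27.8% after 75 Gy. At 2 weeks the groups were separate (exact permutation p = 0.0238), and at 6 weeks they overlapped through 3136 and 3138 (exact permutation p = 0.0714). IgM held 66.3% to 78.4% in 2-week controls and 29.7% to 62.5% in irradiated libraries (exact permutation p = 0.0238). At 6 weeks it held 60.9% to 82.8% in controls and 19.0% to 69.2% in irradiated libraries (exact permutation p = 0.321).

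In all, 11 shares and ratios were compared in 4 ways, or 44 exact tests, and the lowest Benjamini-Hochberg adjusted p was 0.121, so that none passed the correction. Before adjustment 7 measures were at or under 0.05 for irradiated against control at 2 weeks, 4 at 6 weeks, 3 for irradiated 6 weeks against irradiated 2 weeks and 0 for 75 Gy against 65 Gy, where the smallest p possible was 0.01.

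Levels of different genes were compared per kb of coding length. The length used for Ighg2c, 1004 bases, was that of its secreted coding sequence alone. For the other heavy-chain genes it was longer than the secreted sequence, as in Ighg2b with 1219 against 1007 bases. Values per kb of Ighg2c are therefore somewhat high beside the others. In the 2-week controls Ighm came first with a median of 126 CPM per kb, followed by Ighd with 35.8 and Igha with 34.1, a pair whose order held in 1 of 3 libraries. In the irradiated libraries of 6 weeks the medians were 1264 CPM per kb for Ighm and 751 for Igha, with Ighm above Igha in 3 of 5 libraries. Then came Ighg1 with 48.6, Ighg2b with 44.6, Ighd with 37.1 and Ighg2c with 34.0, and Ighg1 was above Ighg2b in 2 of 5 libraries, so these neighbours had no stable order. Ighg3 had a median of 5.33 and was below Ighg2c in all 5, but above Ighg1 in 3138 and above Ighd in 3143. Igha was the highest heavy-chain gene per kb in 3130, 3133, 3140 and 3142, and Ighm in the other 13 libraries.

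**Figure D4:**
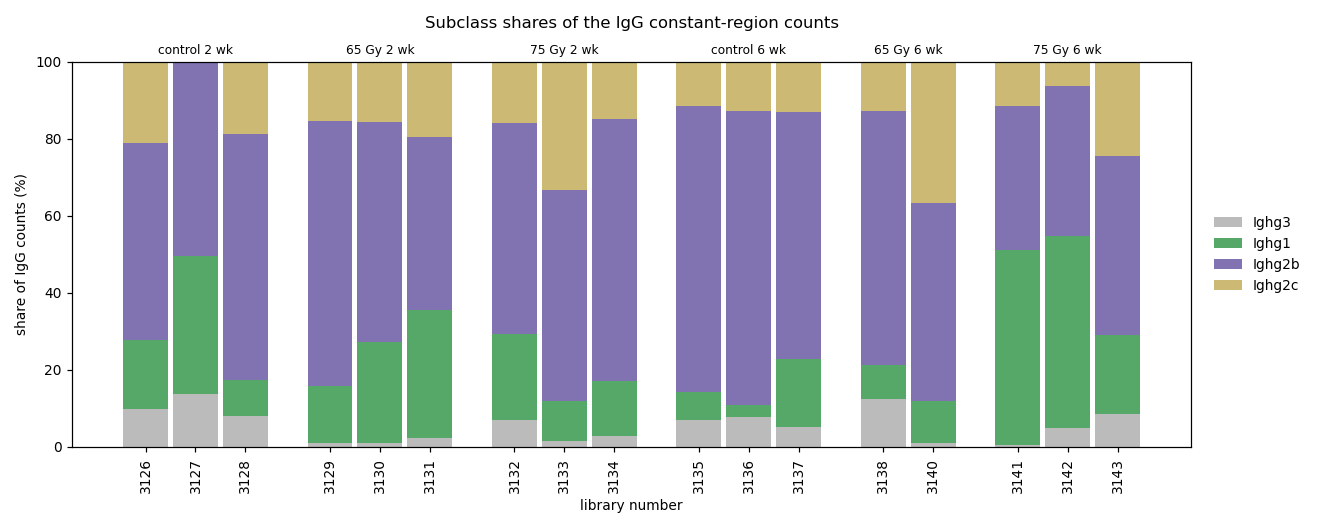
Share of each subclass in the counts on the 4 IgG genes, by library, in percent. Ighg2b has the largest share in most libraries, and Ighg1 has 50.6% and 49.6% in 3141 and 3142.

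Among the IgG counts the subclass mix varied from library to library. Ighg1 held 8.77% and 10.8% after 65 Gy and 6 weeks and 50.6%, 49.6% and 20.4% after 75 Gy, where Ighg2b held 37.3%, 38.9% and 46.5%. Ighg2c held 36.7% in 3140 and 6.42% in 3142. Ighg2b was the highest subclass per kb in 15 libraries and Ighg1 in 3141 and 3142. In controls IgG counts were few, and the intervals of these shares reached 9.22 percentage points on either side. Ighg3 was a smaller part of IgG in irradiated than in control libraries at 2 weeks, 2.57% ± 2.27 (SD, n = 6) against 10.5% ± 2.99 (SD, n = 3; exact permutation p = 0.0238). At 6 weeks the means were 5.54% and 6.59% (exact permutation p = 0.786).

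The chains of an antibody were also set against each other within each library. Jchain counts per count of Ighm plus Igha, the 2 heavy chains it joins, were 0.0476, 0.0503 and 0.0612 in the 2-week controls and 0.0827, 0.0770 and 0.0608 in the 6-week controls. They were 0.0719 to 0.179, with a median of 0.115, in the irradiated libraries of 2 weeks. At 6 weeks they were 0.168 and 0.264 after 65 Gy and 0.200, 0.274 and 0.194 after 75 Gy. Irradiated libraries lay above the controls of their time at both times (exact permutation p = 0.0238 and p = 0.0357), and those of 6 weeks were higher on average than those of 2 weeks, with overlap (exact permutation p = 0.0130).

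**Figure D5:**
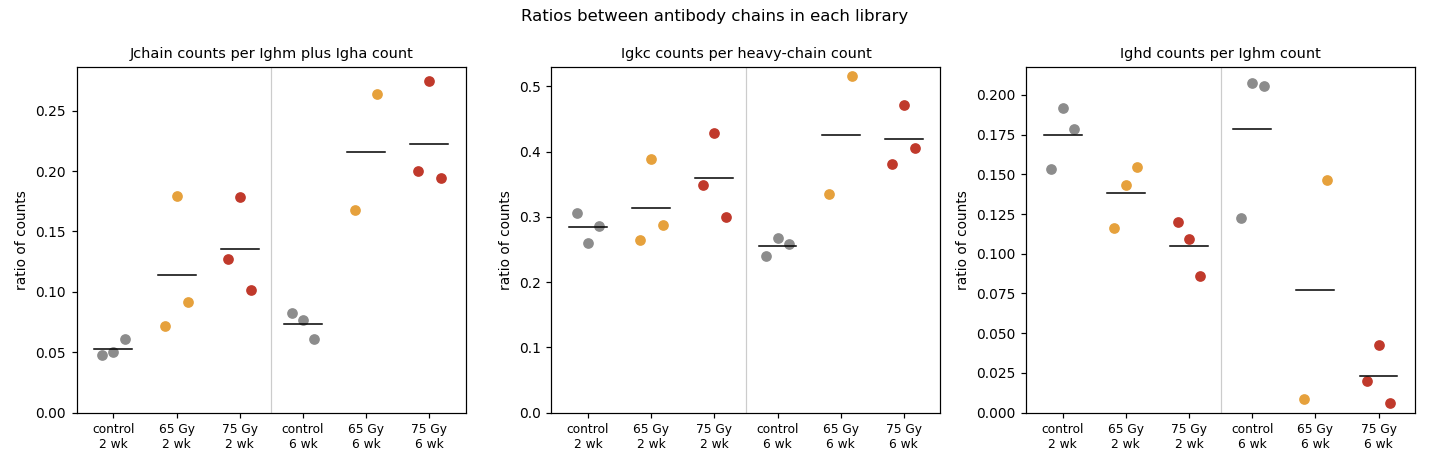
Ratio of Jchain counts to Ighm plus Igha counts, of Igkc counts to the counts of the 8 heavy-chain genes, and of Ighd counts to Ighm counts, in each library by dose and time, with bars at group means. The Jchain ratio is 0.0827 or less in controls and 0.168 or more in irradiated libraries of 6 weeks, while the Ighd ratio of library 3140, 0.146, stands apart from 0.0425 or less in the other 4.

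Igkc counts per heavy-chain count were 0.240 to 0.268 in the 6-week controls and 0.335 to 0.515 in the irradiated libraries, without overlap (exact permutation p = 0.0357). At 2 weeks they were 0.261 to 0.306 in controls and 0.264 to 0.429 in irradiated libraries (exact permutation p = 0.262). Ighd counts per Ighm count were 0.154, 0.192 and 0.178 in the 2-week controls and 0.122, 0.207 and 0.206 in the 6-week controls. In the irradiated libraries of 2 weeks they were 0.0862 to 0.155, lower on average than in the controls, with overlap (exact permutation p = 0.0476). At 6 weeks they were 0.00855 and 0.146 after 65 Gy and 0.0199, 0.0425 and 0.00592 after 75 Gy. Library 3140, whose Ighm was at the control level, thus also had a control-like ratio, and with it the groups overlapped (exact permutation p = 0.0714). The irradiated libraries of 6 weeks were lower on average than those of 2 weeks, with overlap (exact permutation p = 0.0260).

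The variable segments gave a further view of the same transcripts. Over the 120 Ighv segments in the table, the summed level was 49.9 to 115 CPM in the 6-week controls and 305 to 1230 CPM in the irradiated libraries, where each library was led by a segment with a large share. The leading segment was Ighv1-54 in 3138 (318 CPM, 38.5% of Ighv counts), Ighv4-1 in 3140 (97.9 CPM, 32.1%), Ighv1-54 in 3141 (154 CPM, 29.2%), Ighv1-63 in 3142 (58.2 CPM, 16.2%) and Ighv1-80 in 3143 (503 CPM, 40.9%). Control 3135 was likewise led by Ighv1-54 (44.8 CPM, 39.0%), whereas Ighv1-26 led the other 5 controls with 5.57% to 8.01%. Among the irradiated libraries of 2 weeks the leading segment held 21.1% in 3130, 22.9% in 3133 and 17.5% in 3134. It held 8.65% in 3129, 4.93% in 3131 and 6.56% in 3132. Segments of this family resemble each other, so reads of a mutated or related segment may be counted under another name.

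The genes outside the immunoglobulin loci whose levels followed a member most closely over the 17 libraries were found among 21836 candidates by Spearman's rho. For Ighm they were Spata7 (0.93), Gm16136 (0.92) and Crisp3 (0.92), for Ighg1 Cdhr1 (0.96), Megf11 (0.96) and Gm21190 (0.96), and for Igha Fbxw9 (0.93), Nuggc (0.92) and Ttc39aos1 (0.92). Since the libraries share dose and time groups, these values describe likeness of pattern over libraries. By Pearson's r of log2 CPM the first places for Ighm went to Mzb1 (0.95) and Derl3 (0.92), named after their values were seen, which act in antibody assembly and protein degradation in the endoplasmic reticulum of plasma cells. For Ighg1 they went to Apod (0.96) and Gm6093 (0.95), and for Igha to Hes6 (0.94) and Gm36409 (0.93). The nearest genes thus depended on the measure, and only Gm21190 for Ighg1 was among the first 3 by both.

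Genes of class switching and of the signals that direct it were taken as a list of 29, of which 28 were tested. For the mean of both doses 7 were called higher and 0 lower at 2 weeks against 5 higher and 2 lower at 6 weeks, with list medians of 0.44 and 0.24 on the log2 scale against -0.01 and 0.02 for all genes. The background for these and the following list counts, all for the mean of both doses, was 6.72% of all genes tested at 2 weeks (5.07% higher, 1.65% lower) and 8.43% at 6 weeks (6.31% higher, 2.11% lower). For the list counts at an unadjusted p under 0.05 it was 7556 of the 22052 genes tested at 2 weeks and 9571 at 6 weeks. At 6 weeks the risers were Il6 and Apobec1, together with Icos, Cd40lg and Il10, named after their values were seen. Of these Il6, a cytokine that supports plasma cells, rose by 2.90 (SE 0.52, adjusted p = 8.00e-04) and Apobec1, a cytidine deaminase best known for editing messenger RNA, by 1.15 (SE 0.24, adjusted p = 0.00214). Bach2 and Pax5, factors that hold B cells back from becoming plasma cells, had log2 fold changes of -1.09 (SE 0.14, adjusted p = 8.73e-05) and -1.32 (SE 0.21, adjusted p = 3.97e-04).

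Of 20 genes of antibody assembly and secretion 19 were tested, and 0 were called at 2 weeks with edgeR (3 at an unadjusted p under 0.05), while 1 of the 19 rose at 6 weeks, a share near the background of 6.31%. This was Derl3, at 1.53 to 1.74 CPM in 6-week controls and 2.24 to 5.77 CPM in irradiated libraries (1.03, SE 0.29, adjusted p = 0.0140). Of the 19, 13 had an unadjusted p under 0.05 at 6 weeks, against 9571 of all 22052 genes, and 16 had a fitted value above 0. The list median was 0.36 against 0.02 for all genes, and 75 Gy on its own gave 3 higher (background 7.28% higher). Their summed level was 2072 to 2130 CPM in 6-week controls and 2482 to 2873 CPM in irradiated libraries. At 2 weeks it overlapped, at 2567 to 3113 and 2711 to 3239 CPM. Of 18 immunoglobulin receptors and transporters, all tested, 6 were called higher and 0 lower at 2 weeks, as were 6 higher and 1 lower at 6 weeks. The IgG receptors Fcgr3, Fcgr1 and Fcgr4, which myeloid cells carry, were among the risers at 6 weeks, Fcgr3 with 2.06 (SE 0.26, adjusted p = 7.10e-05), Fcgr1 with 2.24 (SE 0.38, adjusted p = 5.29e-04) and Fcgr4 with 1.75 (SE 0.30, adjusted p = 6.32e-04). Fcmr, the IgM receptor of B cells, fell by 1.07 (SE 0.21, adjusted p = 0.00156). Pigr, which carries IgA with its joining chain across epithelia and was chosen after its values were seen, was at 29.8 to 63.5 CPM in 6-week controls and 47.0 to 106 CPM in irradiated libraries, and was not called (0.58, SE 0.39, adjusted p = 0.269).

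Markers of cell types were read in the same fit beside these results. Of 10 B cell markers, 0 were called for the mean of both doses at 2 weeks with edgeR. Under an unadjusted p of 0.05 there were 7, against 7556 of all 22052 genes. By dose at 2 weeks, 75 Gy on its own gave 3 lower (median -0.90, background 2.07% lower) and 65 Gy gave 0. At 6 weeks 3 fell and 0 rose for the mean of both doses, Pax5 and Fcmr among them. Their summed level at 6 weeks was 383 to 688 CPM in controls and 227 to 312 CPM in irradiated libraries, so it moved together with Ighd and opposite to Igha and IgG. Of 10 plasma cell markers 2 rose at 6 weeks, Derl3 and Slamf7, with a list median of 0.92. Slamf7, which other leukocytes also carry, was called at 2 weeks too (2.29, SE 0.33, adjusted p = 2.27e-04). The summed plasma cell level was 396 to 443 CPM in 6-week controls and 481 to 541 CPM in irradiated libraries, of which Sdc1, also made by lung epithelium, gave 272 to 297 CPM and 338 to 377 CPM. This sum was much the same at 2 weeks, at 396 to 443 CPM in controls and 482 to 544 CPM in irradiated libraries.

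Germinal centre markers numbered 8, of which 2 rose at 2 weeks, Mybl1 among them, and 1, Gcsam (1.48, SE 0.16, adjusted p = 2.14e-05), at 6 weeks, while their summed level at 6 weeks was 142 to 151 CPM in controls and 134 to 141 CPM in irradiated libraries. None of the 8 was at 0 in any 6-week control, and Mef2b and Rgs13 were at 0 in 2 and 1 of the 5 irradiated libraries, with medians of 0.349 and 0.0873 CPM in controls and 0.197 and 0.106 CPM in irradiated libraries. Of 10 T cell markers 2, Cd5 and Cd6, rose at 2 weeks and 1, Cd4 (1.10, SE 0.23, adjusted p = 0.00244), at 6 weeks, with a summed level at 6 weeks of 70.1 to 103 CPM in controls and 121 to 148 CPM in irradiated libraries. Since lung-draining or thymic tissue could enter a sample, their markers were also read. Of 5 lymph node stroma markers found in the table Cxcl13 rose at 2 weeks, and 2 rose at 6 weeks, Cxcl13 (1.73, SE 0.29, adjusted p = 5.41e-04) and Madcam1, at 0 in all 3 controls and 0.1804 to 0.460 CPM in irradiated libraries. Their summed level was nonetheless 76.1 to 89.98 CPM in controls and 59.7 to 71.4 CPM in irradiated libraries, with Ccl21a the largest part at 60.6 to 74.0 and 41.7 to 54.4 CPM. Of 6 thymocyte markers 4 were tested and 0 called at either time with edgeR (0 and 1 at an unadjusted p under 0.05, the latter Rag1), with levels of Rag1 at 0 to 0.860 CPM in 6-week controls and 0 to 0.201 CPM in irradiated libraries (-1.83, SE 0.84, adjusted p = 0.110) and Themis not called (0.30, SE 0.17, adjusted p = 0.209).

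The markers of the labelled tissue were present throughout, with a summed level of 7 lung epithelial markers of 20540 to 45163.5 CPM over the 17 libraries. None of the 7 was called at 2 or 6 weeks with edgeR (2 and 5 at an unadjusted p under 0.05, against 7556 and 9571 of all 22052 genes). The lowest p at 6 weeks belonged to Hopx (-0.72, SE 0.17, adjusted p = 0.00436) and to Scgb1a1 (-0.61, SE 0.19, adjusted p = 0.0200). Of 5 endothelial markers 0 were called at 2 weeks with edgeR (4 at an unadjusted p under 0.05) and 3 fell at 6 weeks, Cdh5 (-1.16, SE 0.15, adjusted p = 7.43e-05), Kdr (-1.17, SE 0.15, adjusted p = 7.50e-05) and Cldn5 (-1.004, SE 0.17, adjusted p = 5.38e-04). The part of these changes in the antibody levels was not tested.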

How the data were processed

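Lung RNA was sequenced from 17 libraries in 6 groups of dose and time, taken from the labels. Per the study's methods, messenger RNA was enriched with poly-T beads, stranded libraries were sequenced as paired ends, and the authors trimmed reads with Trimmomatic, mapped them with HISAT2 to GRCm38.p6 with the NCBI annotation and estimated gene levels with StringTie. The deposited file holds the authors' raw read counts per gene as whole numbers, and the step that made counts from StringTie output is not given in the sources used here. Poly-A selection captures secreted and membrane forms of a heavy chain together, and gene counts do not separate them.

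From these counts, 22052 of 45777 genes were kept with edgeR 4.0.16 (filterByExpr, minimum count 10, minimum total 15), scaled by TMM (factors 0.964 to 1.03) and fitted with the quasi-likelihood test over all libraries with 1 coefficient per group. P-values were adjusted by Benjamini and Hochberg over all tested genes, and a call needed an adjusted p of at most 0.05 and a log2 fold change of at least 1 in size. The SE of a log2 fold change was derived as its size divided by the square root of the F statistic. Its 95% interval was that SE times a t quantile on either side, an approximation that edgeR does not itself report. Levels are CPM, counts scaled to the total over the tested genes times the TMM factor. Shares are of raw counts with 95% Wilson intervals (SciPy 1.17.1), and groups were compared by 2-sided exact permutation tests of the mean difference, with dose compared within time. The Wilson intervals and the 3-count limit cover counting error only. Replicate libraries differed by more than sampling noise (chi-square per degree of freedom 13.3 or more), so none was counted as a copy. On simulated data for both doses at 6 weeks, 163 of 200 genes changed 4-fold were recovered among 22052, with 7 false calls. Alternatives were DESeq2 1.42.0, edgeR's exact test, other scaling, no filter, fits to the compared groups alone and leaving out each library. Hinge and coding sequences were read from GRCm38 with its GENCODE annotation. The members and gene lists were chosen with earlier results of these data known. Named list genes were at most the 4 with the smallest p among those called at 6 weeks for the mean of both doses, or the 2 with the smallest p where none was called, with the 3 genes nearest to Ighm, Ighg1 and Igha by Spearman's rho and the leading Ighv segment of each irradiated 6-week library. Other list genes in the text, such as Icos, Mybl1, Cd5, Sdc1 and Mef2b, were named after their values were seen, and some list genes that this rule or a count would name are not reported here.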

Additional observations from a re-analysis of the deposited data

Results flagged for a closer look

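In 42 groups of 5 or 6 irradiated libraries searched with Dixon's criterion, of which chance alone picks about 1 in 20, 5 held a library far from the others. Among the 6 irradiated libraries of 2 weeks, 3134 had the highest Ighg3 level, at 1.11 CPM, 3133 had the highest Ighg2c share of IgG counts, at 33.2%, and 3132 had the highest Ighg3 share of IgG counts, at 6.96%. Among the 5 irradiated libraries of 6 weeks, 3143 had the highest Ighg2c level, at 153 CPM, and 3140 had the highest ratio of Ighd to Ighm counts, at 0.146.

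Ighm after 75 Gy lay below every control at 2 weeks, with a log2 fold change of -0.59, and above every control at 6 weeks, with 2.52. The 2-week value was not called, and the difference between the times was not tested for 75 Gy on its own.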

How the results depend on the processing

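The number of members called for 65 Gy at 2 weeks, 1 in the report, was 2 with DESeq2's size factors in edgeR, 2 without the filter, 4 with edgeR's exact test, 3 with DESeq2 and 4 in a fit to the compared groups alone. Over all genes the exact test called 1254 and DESeq2 1200, against 960 in the report. For 75 Gy at 2 weeks the number of members was 2, in place of 5, in a fit to the compared groups alone. Without the limit on fold change 1 member passed between the controls of 6 and 2 weeks. DESeq2 called 3 members for the difference of effects between times, against 247 of all genes. Leaving out each library in turn gave 1 to 1 members for 65 Gy and 2 to 5 for 75 Gy at 2 weeks, 4 to 8 and 7 to 9 at 6 weeks, 1 to 5 for the mean of both doses at 2 weeks and 7 to 9 at 6 weeks. The shares and ratios at or under an exact p of 0.05 numbered 6 to 7 at 2 weeks, 2 to 4 between irradiated libraries of the 2 times and 0 to 1 between doses.

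With a library left out, the Ighm log2 fold change for 65 Gy spanned -0.34 to 0.025 at 2 weeks (above 0 without 3126) and -0.71 to 2.99 at 6 weeks (below 0 without 3138), and the Ighd difference of effects spanned -0.24 to 0.21 (above 0 without 3135). Between irradiated libraries of 6 and 2 weeks the IgG share, 0.01 percentage points apart, became -0.253 without Ighd in the denominator and -0.828 to 1.79 with a library left out. The IgA share, -0.18 apart, became 0.370 per kb and -7.96 to 3.74 with a library left out, and the Ighg1 share of IgG at 2 weeks spanned -6.65 to 6.57. The cause was not tested. Leaving out a control, or testing a single dose, leaves too few libraries for an exact p of 0.05. So does leaving out an irradiated library of 6 weeks in the comparison with control. No count is given in these cases. No paired analysis was possible because the library numbers are all different and pair nothing across groups. Depth limited Ighe and the IgG subclass shares of controls.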
